A study of Mus musculus with 12 samples.

Results

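The 8 genes described here encode transcription factors tied to the endothelium and barrier of brain vessels. They comprise the forkhead genes Foxf2, Foxq1, Foxl2 and Foxc1, the nuclear receptor gene Ppard, and the SoxF genes Sox7, Sox17 and Sox18. They were chosen by name, with earlier results of these data known, from the 21638 genes of the deposited table. All 8 passed the filter on low counts that left 12577 genes for testing. Their RNA was measured in 12 libraries of sorted brain cortical endothelial cells from adult mice, 3 libraries in each of 4 groups. Cells were sorted as CD31+, CD41- and CD45-, a gate that takes endothelium and leaves out platelets and leukocytes. The groups were wild type (WT), Hdac2 ECKO (Hdac2lox/lox:Cdh5CreERT2, endothelial loss of a histone deacetylase), Ezh2 ECKO (Ezh2lox/lox:Cdh5CreERT2, endothelial loss of the Polycomb methyltransferase) and beta-catenin GOF (Ctnnb1lox/lox:Cdh5CreERT2, constitutive activation of the Wnt effector beta-catenin). Cdh5CreERT2 is a tamoxifen-inducible recombinase driven by the promoter of the VE-cadherin gene, which is active in endothelium of all organs. The mutant mice received 5 doses of tamoxifen at 75 mg/kg, and brains were taken 2 months later. Whether the WT mice carried Cre or received tamoxifen, the age in weeks and the sex are not given in the sources used here. Nothing in the labels says that replicates came from separate animals, so the p-values measure only the spread between these libraries.

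Endothelium of the central nervous system is sealed by tight junctions, limits transcytosis and carries a distinctive set of transporters, a state that Wnt ligands of neural cells induce and maintain through beta-catenin. FOXF2, FOXQ1 and FOXL2 are forkhead proteins enriched in brain endothelium and are known as candidate mediators of that state, and PPARD is a fatty-acid-sensing receptor that pairs with RXR. SOX7, SOX17 and SOX18 share a DNA-binding HMG box, can replace one another in part, and act in arterial specification, vessel integrity and the response to Wnt.

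Foxq1 (GRCm38, chr13:31556134-31560976), Foxf2 (chr13:31625816-31631403) and Foxc1 (chr13:31806633-31812476) lie next to each other on the plus strand, within 256343 bases. No other gene of the table lies in the 64839 bases between Foxq1 and Foxf2 or in the 175229 bases between Foxf2 and Foxc1. Foxl2 lies at chr9:98955288-98958543, Ppard at chr17:28232700-28301474 and Sox7 at chr14:63943673-63950732, all on the plus strand. Sox17 at chr1:4490931-4497354 and Sox18 at chr2:181669836-181671640 are on the minus strand. All 8 are annotated as protein-coding, and Foxq1, Foxl2 and Foxc1 are each annotated with 1 exon. Foxq1 overlaps the gene A530084C06Rik on the opposite strand, which stood at 8.12 to 19.5 CPM over the 12 libraries. CPM is the normalised count, in counts per 1000000 of the TMM-scaled library total. Whether the counting used strand is not given in the sources used here, so reads of that pair cannot be told apart. Foxf2, Foxl2 and Sox17 also overlap noncoding genes on the opposite strand (Gm27516, Foxl2os and Gm37587), which were not analysed here.

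The RefSeq promoter table for GRCm38.p6 held windows for 4 of the 8 genes, Foxf2, Foxl2, Foxc1 and Ppard. The Foxl2 window (chr9:98955357-98955606) lies inside the gene as placed above, so none of its bases are shown. For Foxf2, Foxc1 and Ppard the bases before both the RefSeq start and the gene start given above are shown (250, 237 and 196 bases). They are shown because of where their windows lie. These are also the 3 genes with an unadjusted edgeR p under 0.05 in Hdac2 ECKO against WT (33.1% of all genes tested), and a link was not tested. Each sequence runs 5′ to 3′ on the plus strand, and capitals mark the GC box GGGCGG, a motif bound by SP and KLF factors.
Foxf2, chr13:31625566-31625815: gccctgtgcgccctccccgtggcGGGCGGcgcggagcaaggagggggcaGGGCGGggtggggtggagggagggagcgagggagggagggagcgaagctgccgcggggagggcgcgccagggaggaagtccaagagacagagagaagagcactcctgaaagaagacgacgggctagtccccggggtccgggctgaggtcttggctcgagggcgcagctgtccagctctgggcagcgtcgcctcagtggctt
Foxc1, chr13:31806396-31806632: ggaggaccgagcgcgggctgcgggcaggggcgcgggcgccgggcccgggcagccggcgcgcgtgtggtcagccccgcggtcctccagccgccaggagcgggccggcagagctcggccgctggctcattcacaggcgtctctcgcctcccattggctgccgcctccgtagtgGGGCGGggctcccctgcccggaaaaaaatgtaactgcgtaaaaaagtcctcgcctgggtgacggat
Ppard, chr17:28232504-28232699: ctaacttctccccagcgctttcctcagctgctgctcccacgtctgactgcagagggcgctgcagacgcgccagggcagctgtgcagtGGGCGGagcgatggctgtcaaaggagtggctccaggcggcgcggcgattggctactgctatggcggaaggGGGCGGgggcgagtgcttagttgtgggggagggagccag
The 250 bases before the RefSeq start of the 4 genes held 69.6% to 71.6% G and C, against a median of 52.4% over all promoters of the table. They held 21 to 29 CpG dinucleotides, against a median of 6. Both strands were searched for the forkhead motif TGTTTAC, the SOX motif ACAATG, the TCF/LEF motif CTTTGAT, the nuclear receptor motif AGGTCA and the GC box, none of which contains another. No window of the 4 held any of the first 4 motifs, which occur in 3.2%, 10.5%, 3.2% and 14.0% of 32536 promoters of the same length. The GC box occurs in 33.0% of promoters and was found 1 time in the Foxc1 window, 2 times each in those of Foxf2 and Foxl2, and 3 times in that of Ppard. Of the 3 in the Ppard window, 2 lie in the bases shown.

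Libraries held 24781070 to 36109975 counts. All 8 endothelial markers listed were detected in every group, with summed levels of 4730 to 6740 CPM. The targeted genes did not pass the test. The Hdac2 level averaged 129 ± 30.1 CPM across WT libraries and 96.5 ± 15.2 CPM across those of Hdac2 ECKO (SD, n = 3 per group; edgeR adjusted p 0.225), and it averaged 96.2 ± 10.1 CPM in beta-catenin GOF. Ezh2 averaged 6.75 ± 3.52 CPM across WT libraries and 8.92 ± 3.36 CPM across those labelled Ezh2 ECKO (SD, n = 3 per group, edgeR adjusted p 0.615), so its mean was not lower under that label. Counts per gene cannot show a deleted exon, so they do not check the label, and every direction below belongs to libraries so labelled. The log2 fold change of Ezh2 in these libraries against WT was 0.40 with edgeR and 1.28 with limma and sample quality weights, which called it higher (adjusted p 0.0428). Ctnnb1 averaged 654 ± 138 CPM across WT libraries and 583 ± 109 CPM across beta-catenin GOF libraries (SD, n = 3 per group; edgeR adjusted p 0.962), and the level of a gene's RNA does not check an allele meant to activate its protein. Hdac2 ECKO replicates 1 and 3 and labelled Ezh2 ECKO replicates 1 and 3 were at 84.3, 58.3, 53.7 and 47.7 on the first principal component of all genes tested, which holds 29.3% of the variance, against -66.5 to 9.3 for the other 8. Labelled Ezh2 ECKO replicate 2 stood alone on the second component at -90.7. The pericyte and smooth muscle list (10 of 10 genes in the table) summed to 67.7 to 124 CPM in WT libraries and 58.0 to 76.5 CPM in labelled Ezh2 ECKO. The same list summed to 130 to 324 CPM in Hdac2 ECKO and 122 to 384 CPM in beta-catenin GOF, and 4 of the 10 genes passed the test as higher in Hdac2 ECKO than in WT. The blood list of 5 genes summed to 19600 to 33700 CPM in WT, 217 to 11800 CPM in Hdac2 ECKO, 1470 to 3640 CPM in labelled Ezh2 ECKO and 289 to 20900 CPM in beta-catenin GOF. The astrocyte list of 6 genes summed to 24.3 to 35.0 CPM in WT, 49.3 to 76.0 CPM in Hdac2 ECKO, 43.6 to 77.3 CPM in labelled Ezh2 ECKO and 36.9 to 54.0 CPM in beta-catenin GOF, so that every mutant library lay above every WT library. The oligodendrocyte list summed to 22.3 to 77.2 CPM in WT and 13.1 to 35.1 CPM in the mutants, and the lymphatic list to 12.6 to 25.6 CPM over all libraries. Neuron, fibroblast and microglia and leukocyte lists stayed below 9 CPM in every library.

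In WT endothelium the 3 SoxF genes and 3 of the 4 forkhead genes were the highest members of their families per kilobase of transcript. CPM per kilobase divides the CPM by the gene's length in the table, so that genes can be compared. Foxf2 at 32.1 ± 7.45, Foxq1 at 22.3 ± 3.23 and Foxc1 at 20.2 ± 6.77 CPM per kilobase (SD, n = 3 each) took places 1 to 3 of 44 Fox genes, ahead of Foxp1 at 16.4 ± 1.93. Foxl2 took place 8 at 3.89 ± 1.04 CPM per kilobase. These 4 genes held 59.4% of the summed Fox level. Sox18 at 89.0 ± 6.01, Sox17 at 37.1 ± 1.9 and Sox7 at 21.5 ± 4.07 CPM per kilobase took places 1 to 3 of 19 Sox genes and held 91.5% of the summed Sox level. Sox13 came next at 4.64 CPM per kilobase. Ppard was the lowest of the 8 at 0.658 ± 0.298 CPM per kilobase.

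**Figure D1:**
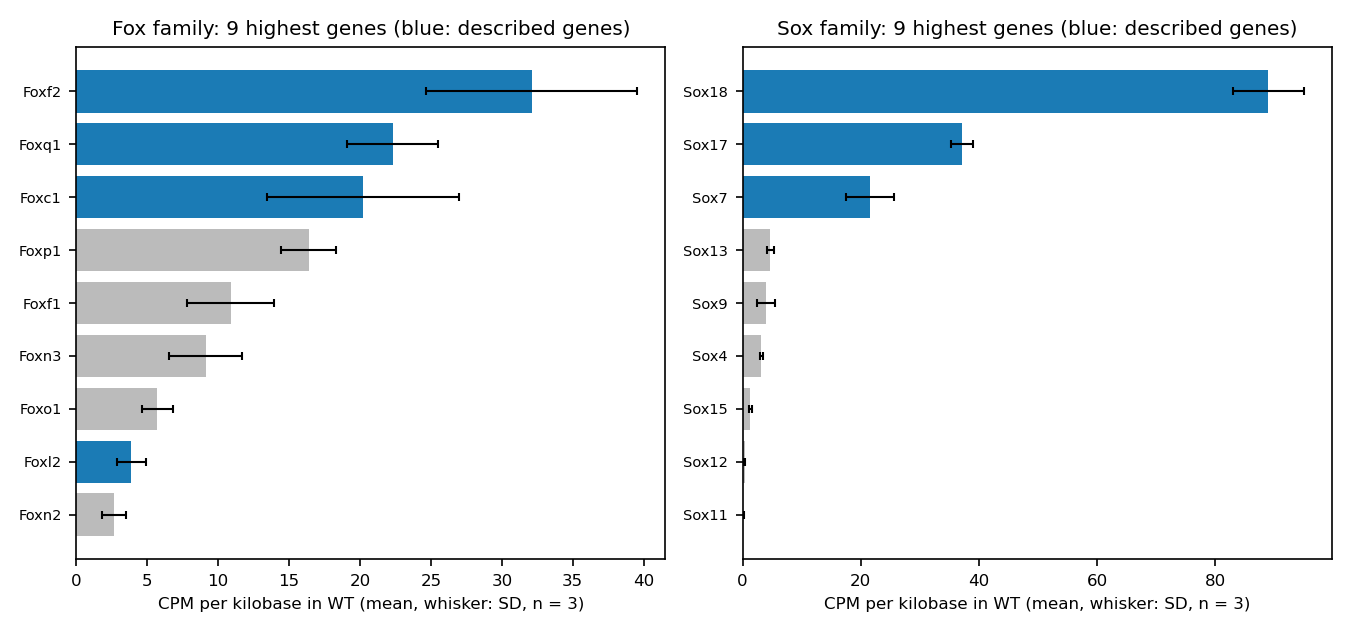
Level in WT, in CPM per kilobase of transcript, of the 9 highest genes of the Fox family (left) and the Sox family (right); bars are means of 3 libraries, whiskers are SD, and blue marks the genes described. Sox18, Sox17 and Sox7 stand above all other Sox genes, while the step from Foxc1 to Foxp1 is within the SD of Foxc1.

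Per kilobase, the order in WT was Sox18, Sox17, Foxf2, Foxq1, Sox7, Foxc1, Foxl2 and Ppard. The ranges of Sox17 and Foxf2, of Foxq1 and Sox7, and of Sox7 and Foxc1 overlapped, while the other neighbours did not. Sox18 came first and Foxl2 and Ppard came last in all 4 groups. Foxc1 took place 6 of 8 in WT and place 4 in Hdac2 ECKO, at 38.9 ± 10.5 CPM per kilobase, and in labelled Ezh2 ECKO, at 35.6 ± 9.28 (SD, n = 3 each). In both mutants its range overlapped those of its neighbours in the order. Sox17 was at 50.5 ± 14.0 CPM per kilobase in Hdac2 ECKO and 46.3 ± 14.6 in labelled Ezh2 ECKO against 27.1 ± 3.25 in beta-catenin GOF (SD, n = 3 each).

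None of the 8 genes passed the test in any comparison, although Foxf2, Foxc1 and Ppard had higher means in Hdac2 ECKO than in WT. Tests were edgeR's quasi-likelihood F test over all 12577 genes with Benjamini-Hochberg adjustment and a threshold of 0.05. In Hdac2 ECKO against WT edgeR called 0 of 8 (9.2% of all genes tested were called). Unadjusted p-values under 0.05 were reached by 3 of the 8, Foxf2, Foxc1 and Ppard (33.1% of all genes), while DESeq2 called 1 (20.4% of the genes it gave an adjusted p) and limma with sample quality weights called 4 (42.7% of all genes). The libraries of the groups did not overlap for 2 of the 8, Foxf2 and Foxq1, both higher (19.5% of all genes were higher without overlap). The median log2 fold change of the 8 was 0.5, against 0.1 over all genes.

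In labelled Ezh2 ECKO against WT edgeR called 0 of 8 (1.03% of all genes were called). Foxc1 alone had an unadjusted p under 0.05 (24.7% of all genes), DESeq2 called 0 (10.4% of genes), and limma with sample quality weights called 2 (29.8% of genes). The median log2 fold change of the 8 was 0.35, against 0.05 over all genes. In beta-catenin GOF against WT edgeR called 0 of 8, 0 had an unadjusted p under 0.05, and DESeq2 and limma with sample quality weights each called 0. Over all genes edgeR called 0%, 6.07% had an unadjusted p under 0.05, DESeq2 called 0.263% and limma with the weights 0.207%. For Sox7 and Sox17 the beta-catenin GOF libraries lay below all WT libraries without overlap (5.87% of all genes were lower without overlap). The median log2 fold change of the 8 was 0.06, against 0.01 over all genes.

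**Figure D2:**
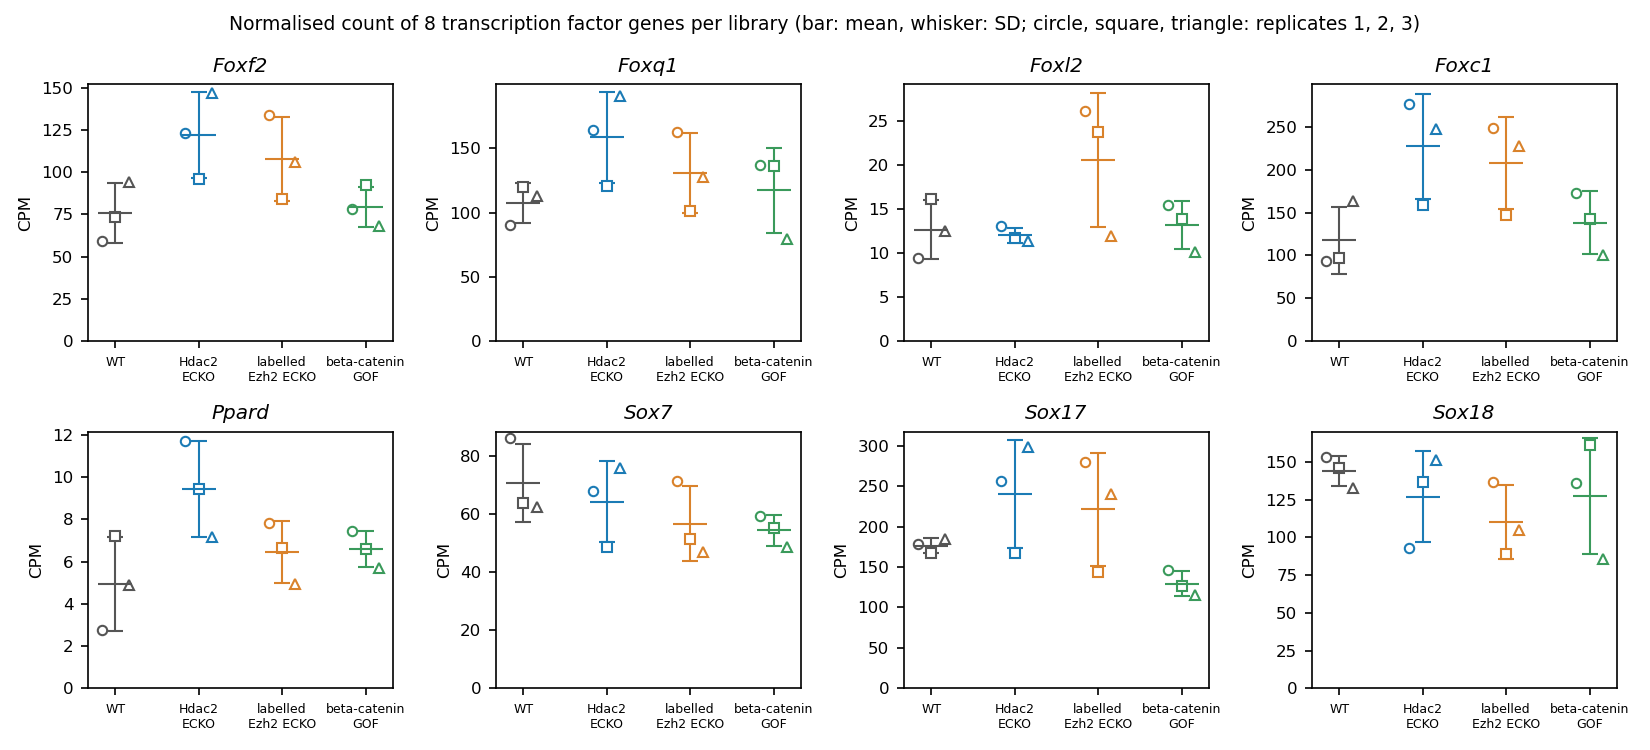
Normalised level in CPM of each gene in every library, by group; bars are means, whiskers are SD, and circles, squares and triangles are replicates 1, 2 and 3. Hdac2 ECKO and labelled Ezh2 ECKO replicates 1 and 3 lie above replicate 2 for Foxf2, Foxq1, Foxc1 and Sox17.

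Foxf2, a forkhead gene known for its part in pericyte and vessel development of the brain, was at 59.5, 73.5 and 94.5 CPM in WT replicates 1, 2 and 3. In Hdac2 ECKO it was at 123, 95.9 and 147 CPM. All 3 Hdac2 ECKO libraries were above the highest WT library, by a narrow margin for replicate 2. The log2 fold change was 0.69 (SE 0.26, 95% interval 0.13 to 1.25; edgeR adjusted p 0.0911). With the trend on gene length and GC content removed, the log2 fold change was 1.32 and passed the test (edgeR adjusted p 0.0378). Labelled Ezh2 ECKO was at 134, 84.4 and 106 CPM, with 2 of 3 libraries above all of WT (log2 fold change 0.52, SE 0.26; edgeR adjusted p 0.235). With the same trend removed that value was 1.04 (edgeR adjusted p 0.0885). Beta-catenin GOF was at 78.1, 92.2 and 68.3 CPM, within the range of WT (log2 fold change 0.07, 95% interval -0.49 to 0.63; edgeR adjusted p 0.987).

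Foxc1, its neighbour on chromosome 13 and a factor of mesenchymal and vascular development, was at 93.6, 96.4 and 163 CPM in WT. It was at 277, 159 and 247 CPM in Hdac2 ECKO and at 249, 147 and 228 CPM in labelled Ezh2 ECKO. In both mutants replicates 1 and 3 were above all of WT, while replicate 2 lay below WT replicate 3. The log2 fold change was 0.95 in Hdac2 ECKO (SE 0.32, 95% interval 0.28 to 1.62; edgeR adjusted p 0.0619). Without WT replicate 3 it was 1.26 (edgeR adjusted p 0.0293, 14.8% of all genes called), and without Hdac2 ECKO replicate 2 it was 1.11 (edgeR adjusted p 0.0322, 17.6% of all genes called). Over the 6 fits without 1 library it ran from 0.77 to 1.26, and only those 2 called Foxc1. It was called by DESeq2 as well, with a log2 fold change of 0.89 (adjusted p 0.0386). In labelled Ezh2 ECKO the log2 fold change was 0.82 (SE 0.31, 95% interval 0.15 to 1.49; edgeR adjusted p 0.132). Without WT replicate 3 that value was 1.13 (edgeR adjusted p 0.0479, 9.04% of all genes called), and without labelled Ezh2 ECKO replicate 2 it was 1.02 (edgeR adjusted p 0.0359, 18.5% of all genes called). Over the 6 fits without 1 library it ran from 0.65 to 1.13, and only those 2 called Foxc1. The call for Foxc1 thus turned on single libraries. Beta-catenin GOF was at 173, 142 and 100 CPM and overlapped WT (log2 fold change 0.23, 95% interval -0.43 to 0.89; edgeR adjusted p 0.953).

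Foxc1 and Foxf2 are also expressed by mural cells. The summed pericyte and smooth muscle list did not overlap between Hdac2 ECKO and WT, and its part in their values there was not tested. The summed blood list was lower in every Hdac2 ECKO and labelled Ezh2 ECKO library than in every WT library, and the summed astrocyte list was higher. Singly, the 5 blood genes and 3 of the 6 astrocyte genes were tested, and none passed. The part of both lists was not tested either. In bulk libraries a changed share of cells and a changed amount of RNA per cell cannot be told apart.

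Foxq1, the remaining gene of the cluster and one of the forkhead genes most restricted to brain endothelium, was at 90.3, 120 and 113 CPM in WT. In Hdac2 ECKO it was at 164, 121 and 191 CPM, and its lowest library was just above the highest WT library. The log2 fold change was 0.56 (SE 0.28, 95% interval -0.04 to 1.15; edgeR adjusted p 0.175). Labelled Ezh2 ECKO was at 163, 101 and 128 CPM, with 2 of 3 libraries above all of WT (log2 fold change 0.28, SE 0.28; edgeR adjusted p 0.562). In beta-catenin GOF it was at 137, 136 and 79.3 CPM, 2 libraries above and 1 below all of WT (log2 fold change 0.12, SE 0.28; edgeR adjusted p 0.975). The 8.12 to 19.5 CPM of the overlapping gene A530084C06Rik limit how exactly these levels are known.

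Foxl2, best known as an ovarian factor, was low, at 9.37, 16.1 and 12.5 CPM in WT. In Hdac2 ECKO it was at 13.0, 11.7 and 11.4 CPM and in beta-catenin GOF at 15.4, 13.9 and 10.1 CPM, all within the range of WT. Labelled Ezh2 ECKO stood at 26.1, 23.7 and 11.9 CPM, with replicates 1 and 2 above every other library. The log2 fold change of labelled Ezh2 ECKO against WT was 0.70 (SE 0.33, 95% interval -0.01 to 1.40; edgeR adjusted p 0.205), or 1.11 with the length and GC trend removed (edgeR adjusted p 0.0683). For Hdac2 ECKO over labelled Ezh2 ECKO the log2 fold change was -0.77 (SE 0.33; edgeR adjusted p 0.587). Foxl2 was the only forkhead gene of the 4 for which replicate 2 of labelled Ezh2 ECKO was high.

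Ppard was at 2.74, 7.22 and 4.88 CPM in WT, resting on 79 counts in the lowest library. In Hdac2 ECKO it was at 11.7, 9.43 and 7.18 CPM, with replicates 1 and 2 above all of WT and replicate 3 just below the highest WT library. The log2 fold change was 0.93 (SE 0.39, 95% interval 0.11 to 1.76; edgeR adjusted p 0.113). With each of the 6 libraries left out in turn it ran from 0.64 to 1.31, and no fit without 1 library called it. It was 0.56 with limma and sample quality weights and 0.61 with the length and GC trend removed, and neither passed (limma adjusted p 0.194, edgeR adjusted p 0.309). Labelled Ezh2 ECKO was at 7.81, 6.65 and 4.92 CPM and beta-catenin GOF at 7.44, 6.60 and 5.72 CPM, both overlapping WT. The log2 fold changes were 0.38 and 0.41 (SE 0.39 each; edgeR adjusted p 0.561 and 0.933). The 4.27-fold span from the lowest to the highest library was the widest of the 8 genes.

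Sox17, an arterial factor of the SoxF group, was at 178, 167 and 185 CPM in WT, with the smallest relative spread of any of the 8 genes in any group (coefficient of variation 5.13%). In Hdac2 ECKO it was at 256, 168 and 299 CPM, a log2 fold change of 0.45 (SE 0.28; adjusted p 0.27 by edgeR). The labelled Ezh2 ECKO libraries were at 280, 144 and 240 CPM, a log2 fold change of 0.32 (SE 0.28; adjusted p 0.488 by edgeR). Replicates 1 and 3 of both mutants lay above WT, while replicate 2 lay within it in Hdac2 ECKO and below it in labelled Ezh2 ECKO. In beta-catenin GOF it was at 146, 126 and 116 CPM, below every WT library (log2 fold change -0.45, SE 0.28, 95% interval -1.04 to 0.13; edgeR adjusted p 0.892). Sox17 was therefore on opposite sides of WT in beta-catenin GOF and in 2 libraries each of the other mutants.

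That difference was tested between the mutants. Of the 8 genes, edgeR called 0 in beta-catenin GOF against Hdac2 ECKO (0.0716% of all genes were called), where 3 had an unadjusted p under 0.05, Foxf2, Foxc1 and Sox17 (21.1% of all genes). DESeq2 called 1 of the 7 that it gave an adjusted p, which left out Ppard (6.03% of genes), and limma with sample quality weights called 3 of 8 (26.5% of genes). For Sox17 the log2 fold change was -0.90 (SE 0.28, 95% interval -1.49 to -0.31; edgeR adjusted p 0.169), and all 3 beta-catenin GOF libraries were below all 3 of Hdac2 ECKO. For Foxf2 the groups also lay apart (log2 fold change -0.62, SE 0.26; adjusted p 0.208 by edgeR), and 15.9% of all genes were lower without overlap in this comparison. Sox17 passed with DESeq2 (log2 fold change -0.86, adjusted p 0.0497) and without Hdac2 ECKO replicate 2 (log2 fold change -1.06, edgeR adjusted p 0.0486, 4.3% of all genes called). It ran from -1.06 to -0.70 over the 6 fits without 1 library, and no other of these called it.

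In beta-catenin GOF against labelled Ezh2 ECKO edgeR called 0 of 8 (0.0636% of all genes were called), 1 had an unadjusted p under 0.05 (Sox17; 13.2% of all genes), DESeq2 called 0 (1.4% of genes) and limma with sample quality weights called 1, also Sox17 (11.7% of genes). The log2 fold change of Sox17 was -0.78 (SE 0.28, edgeR adjusted p 0.306), or -1.01 without labelled Ezh2 ECKO replicate 2 (edgeR adjusted p 0.039, 5.81% of all genes called). It ran from -1.01 to -0.56 over the 6 fits without 1 library, and no other of these called it. In Hdac2 ECKO against labelled Ezh2 ECKO edgeR called 0 of 8 (0.0239% of all genes were called), 1 had an unadjusted p under 0.05 (Foxl2; 8.19% of all genes), and DESeq2 and limma with sample quality weights each called 0 (0.908% and 0.0875% of genes). Comparisons that share a group share its libraries, so they are not independent of each other.

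Sox7 was at 86.4, 63.9 and 62.4 CPM in WT. Its levels were 68.2, 48.9 and 76.1 CPM for Hdac2 ECKO and 71.5, 51.6 and 47.2 CPM for labelled Ezh2 ECKO. In beta-catenin GOF it was at 59.3, 55.4 and 48.7 CPM, below every WT library. The log2 fold change there was -0.38 (SE 0.26, 95% interval -0.92 to 0.16; edgeR adjusted p 0.904). In Hdac2 ECKO it was -0.14 (edgeR adjusted p 0.734), a sign that turned with library totals alone, with sample quality weights and with the length and GC trend removed. For labelled Ezh2 ECKO it was -0.32 (edgeR adjusted p 0.452). Its 1.83-fold span between libraries was the narrowest of the 8 genes.

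Sox18, known for its part in lymphatic and blood vessel development, was at 153, 146 and 133 CPM in WT. It was at 93.1, 137 and 151 CPM in Hdac2 ECKO, 137, 89.1 and 105 CPM in labelled Ezh2 ECKO and 136, 161 and 85.4 CPM in beta-catenin GOF. Each mutant had at least 1 library below all of WT, and all 3 overlapped WT. The log2 fold changes were -0.18 in Hdac2 ECKO, -0.39 for labelled Ezh2 ECKO and -0.18 for beta-catenin GOF (edgeR adjusted p 0.674, 0.398 and 0.955). With the length and GC trend removed the first was 0.52 and the second 0.21, so that their direction turned. Sox18 is shorter and richer in G and C than most genes: 17.9% of genes are shorter than its 1620 bases, and 97.1% have a lower GC content than its 60.9%.

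**Figure D3:**
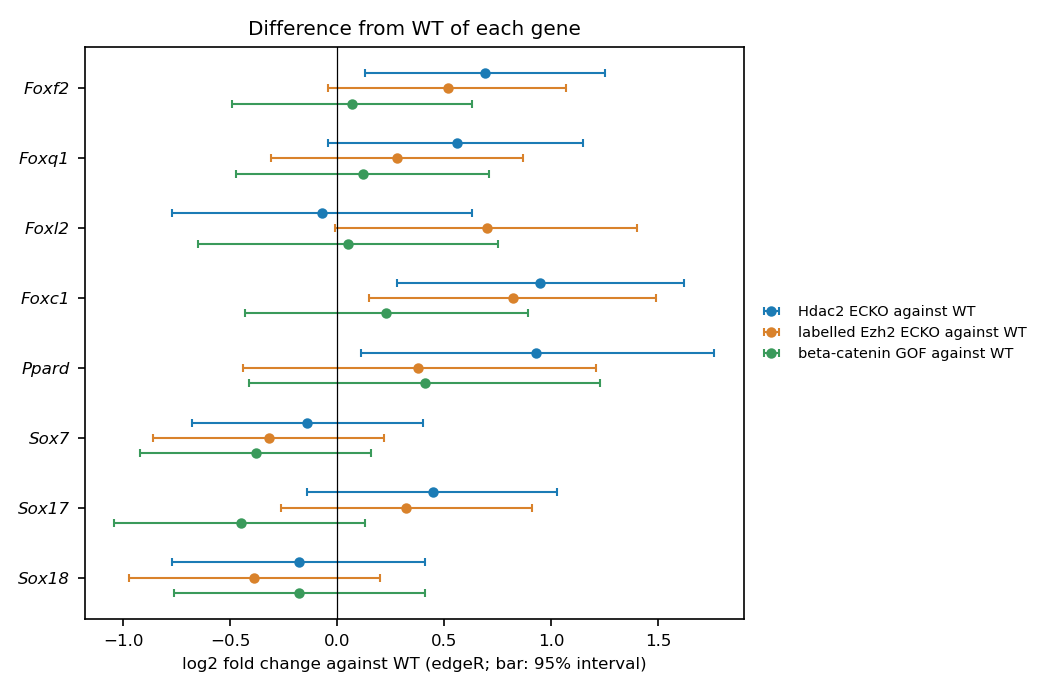
Log2 fold change of each gene against WT for Hdac2 ECKO, labelled Ezh2 ECKO and beta-catenin GOF; points are edgeR estimates and bars are 95% intervals without adjustment for multiple tests. The intervals of Foxf2, Foxc1 and Ppard in Hdac2 ECKO and of Foxc1 in labelled Ezh2 ECKO lie above 0, and none of these passed after adjustment.

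The same correction for length and GC content moved other genes as well. Foxf2 has a table length of 2363 bases, and 95.3% of genes have a lower GC content. Foxl2, at 60.8% G and C, went from -0.07 to 0.36 in Hdac2 ECKO. Ppard, the longest of the 8 at 7514 bases, went from 0.93 to 0.61 in Hdac2 ECKO and from 0.38 to 0.24 in labelled Ezh2 ECKO. Foxc1 (5844 bases) and Sox17 (4772 bases) ran from 0.82 to 1.21 and from 0.39 to 0.68 in Hdac2 ECKO over the 9 other settings. The direction of Foxf2, Foxq1, Foxc1, Ppard and Sox17 in Hdac2 ECKO and labelled Ezh2 ECKO was the same under all 9 settings and with each library left out.

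**Figure D4:**
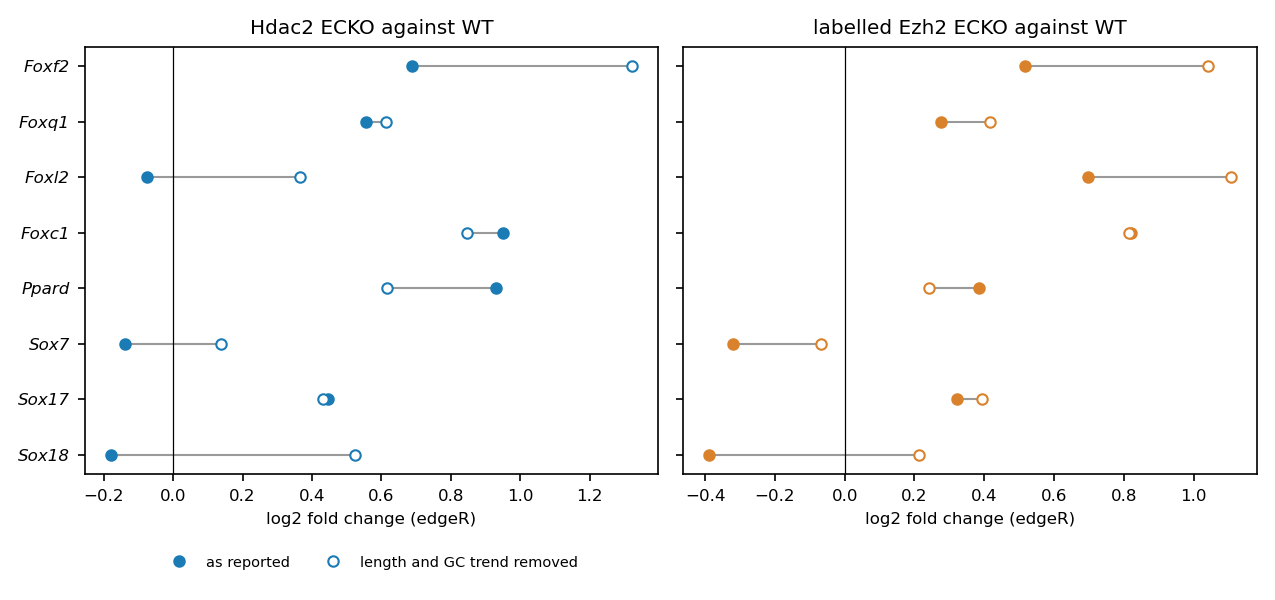
Log2 fold change against WT as reported (filled) and after removal of each library's trend on gene length and GC content (open), in Hdac2 ECKO (left) and labelled Ezh2 ECKO (right). Foxf2 moved from 0.69 to 1.32 in Hdac2 ECKO and Sox18 crossed 0 in both panels, while Foxc1 and Sox17 stayed close to their reported values.

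Foxf2, Foxq1, Foxc1 and Sox17 had the 6 highest correlations of the 28 pairs of genes over the libraries. Over the 12 libraries the log2 CPM of Foxf2 and Foxc1 had a Pearson r of 0.92 (Spearman rho 0.88), and r was 0.91 without the 2 libraries farthest from the median of Foxf2. For Foxf2 and Foxq1 r was 0.87, for Foxq1 and Foxc1 it was 0.82 and for Foxf2 and Sox17 it was 0.79. Without the 2 farthest libraries the 6 pairs ran down to 0.50, for Foxq1 and Sox17. The other 22 pairs had an r of -0.22 to 0.59 over all libraries. Deviations from group means had an r of 0.75 to 0.84 over the 6 pairs, and of -0.16 to 0.81 over the other 22, with Foxl2 and Ppard at 0.81, Sox7 and Sox17 at 0.66 and Foxq1 and Sox18 at 0.63. Within groups these 4 genes were thus not set apart from all other pairs. Of the SoxF genes, Sox7 and Sox17 had an r of 0.50 (0.87 without the 2 farthest libraries), Sox7 and Sox18 of 0.50 (0.37) and Sox17 and Sox18 of 0.13 (-0.11). These are descriptions over libraries that share preparation, scaling and group.

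**Figure D5:**
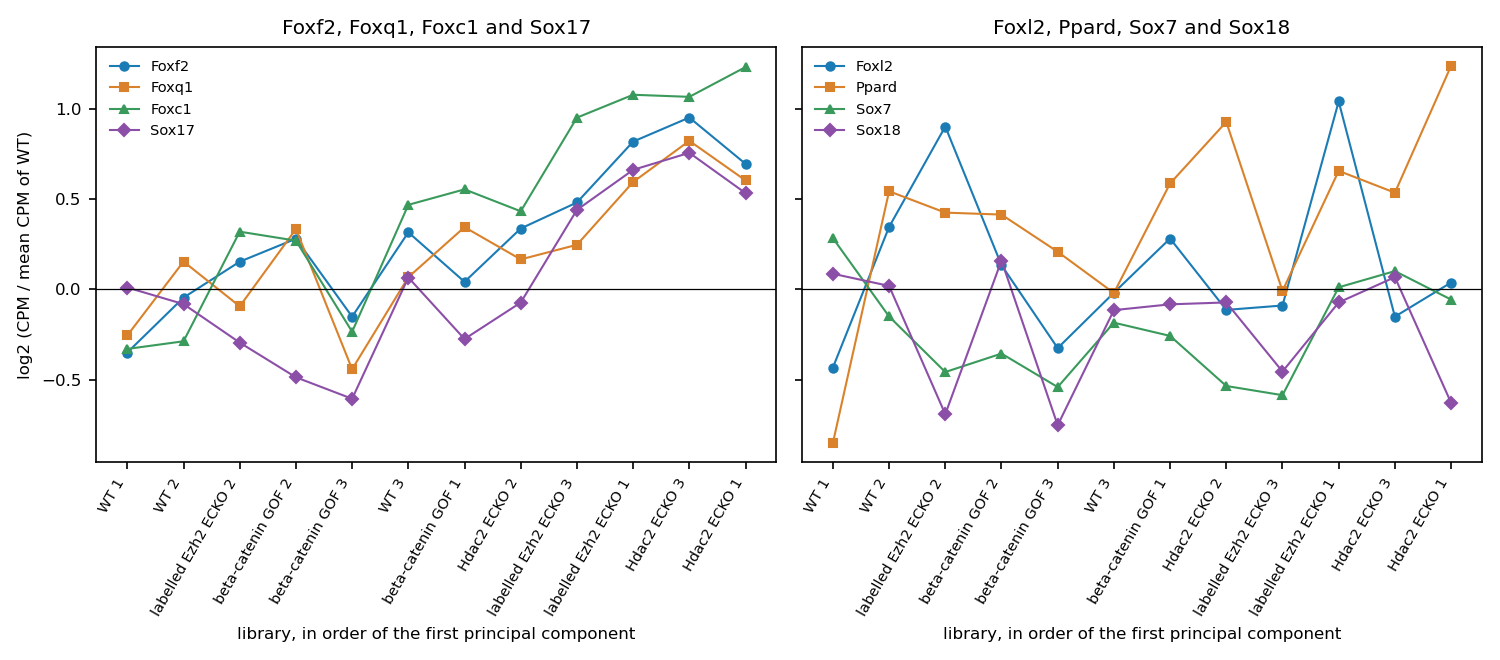
Log2 ratio of each library's CPM to the mean CPM of WT, with the 12 libraries in order of the first principal component of all genes tested, for Foxf2, Foxq1, Foxc1 and Sox17 (left) and Foxl2, Ppard, Sox7 and Sox18 (right). The 4 highest libraries of Foxf2, Foxc1 and Sox17 are the 4 at the right end, and 3 of those 4 are among the 4 highest of Foxq1 and of Sox7, 2 for Ppard and 1 each for Foxl2 and Sox18.

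Many other genes followed the same order of libraries. The 4 libraries with the highest Foxf2, Foxc1 and Sox17 were the 4 highest on the first principal component, 2 each of Hdac2 ECKO and labelled Ezh2 ECKO. The r with that component was 0.93 for Foxc1, 0.89 for Foxf2, 0.78 for Sox17 and 0.76 for Foxq1, against 0.58 for Ppard and -0.22 to 0.10 for Foxl2, Sox7 and Sox18. Of all genes tested, 9.12% (1146 genes) had an r above 0.8 with Foxc1 and 7.17% (901 genes) with Foxf2. The most similar to Foxc1 were Tra2a (r = 0.98), a splicing factor gene, and Tjp1 (r = 0.976), which encodes the junction scaffold ZO-1. For Foxf2 they were Prg4 (r = 0.969) and Kdm2a (r = 0.968), for Foxq1 Cnksr3 (r = 0.937) and Lnpk (r = 0.922), and for Sox17 Ptpn14 (r = 0.943) and Elmod2 (r = 0.92). Fewer genes resembled the others: Ppard had 47 above 0.8, led by Tbrg4 (r = 0.939) and Myh9 (r = 0.885). Sox18 had 9, led by Vmn2r110 (r = 0.921) and Map3k11 (r = 0.873). Foxl2 had 8, led by 4930502E18Rik (r = 0.909) and Mettl5 (r = 0.871), and Sox7 had 2, Rnf115 (r = 0.855) and Kpna3 (r = 0.805).

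Genes that work with these factors were read from lists chosen by known function, and most calls came from Hdac2 ECKO against WT, where 3.82% of all genes tested were called as higher and 5.38% as lower. Every list call in that comparison was lost without WT replicate 1, without WT replicate 2 or without Hdac2 ECKO replicate 3, when edgeR called 0 genes of the whole table, and without Hdac2 ECKO replicate 1, when it called 1. Of the 14 list calls, those of Cav1, Egfl7 and Erg passed under all 9 other settings, and the other 11 were lost under at least 1. Of 20 Fox genes tested, the 4 described included, edgeR called Foxn2 alone, as higher (from 19.9 ± 6.19 CPM to 45.0 ± 14.3 CPM, SD, n = 3 per group; log2 fold change 1.18, edgeR adjusted p 0.0427). An unadjusted p under 0.05 was reached by 9, DESeq2 called 3 and limma with sample quality weights called 8. Over all genes these shares were 33.1%, 20.4% of those given an adjusted p, and 42.7%. Of the 20, 18 had a positive log2 fold change (54.0% of all genes), and the median was 0.53. With the length and GC trend removed that of Foxn2 was 0.72 and the call was lost (edgeR adjusted p 0.0895). Of 11 Sox genes tested edgeR called 0, none had an unadjusted p under 0.05, DESeq2 called 0 and limma with sample quality weights called 1, with a median of -0.14. Of 25 other brain endothelial transcription factor genes tested, Erg, an ETS factor of endothelial identity, was the only call of edgeR, while 9 had an unadjusted p under 0.05, DESeq2 called 5 and limma with sample quality weights called 14. Its level was 60.9 ± 17.9 CPM for WT and 127 ± 31.0 CPM for Hdac2 ECKO (SD, n = 3 per group; log2 fold change 1.06, edgeR adjusted p 0.036), and the median of the 25 was 0.56 against 0.1 over all genes.

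The SoxF list of partners and reported targets had 19 genes tested, of which edgeR called 1 as higher and 1 as lower in Hdac2 ECKO. Robo4, an endothelial guidance receptor, rose from 50.2 ± 3.22 to 87.3 ± 6.39 CPM (SD, n = 3 each; log2 fold change 0.80, edgeR adjusted p 0.0398). Egfl7, which encodes a secreted endothelial protein, went from 832 ± 273 to 320 ± 92.4 CPM (SD, n = 3 each; log2 fold change -1.38, edgeR adjusted p 0.0342). The list median was 0.52. An unadjusted p under 0.05 was reached by 12 genes of the list, DESeq2 called 3 and limma with sample quality weights called 12. Over all genes these shares were 33.1%, 20.4% of those given an adjusted p, and 42.7%. Of 11 PPAR partners and coregulators tested edgeR called 0, 6 had an unadjusted p under 0.05, DESeq2 called 3 and limma with sample quality weights called 5, with a median of 0.71. Of 17 PPAR target genes tested, 2 of lipid handling fell in Hdac2 ECKO, the lipid droplet gene Plin2 from 68.5 ± 15.2 to 31.3 ± 11.1 CPM (SD, n = 3 each; log2 fold change -1.13, edgeR adjusted p 0.0386) and the mitochondrial carnitine carrier gene Slc25a20 from 37.8 ± 9.94 to 17.3 ± 4.25 CPM (SD, n = 3 each; log2 fold change -1.12, edgeR adjusted p 0.0401). The list median was -0.23, opposite in sign to the value of Ppard. In this list 9 genes had an unadjusted p under 0.05, DESeq2 called 6 and limma with sample quality weights called 9.

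Of 27 barrier genes tested, edgeR called 5 as higher and 3 as lower in Hdac2 ECKO, and the median was 0.31. In this list 15 genes had an unadjusted p under 0.05, DESeq2 called 10 and limma with sample quality weights called 18. Over all genes these shares were 33.1%, 20.4% of those given an adjusted p, and 42.7%. Cav1, the caveolae gene, went from 1230 ± 463 to 520 ± 83.9 CPM (SD, n = 3 each; log2 fold change -1.24, edgeR adjusted p 0.0342). The junction gene Marveld2 fell (log2 fold change -1.21, edgeR adjusted p 0.0346), as did F11r (log2 fold change -0.99, edgeR adjusted p 0.0392). The organic anion transporter gene Slco2b1 rose from 60.2 ± 5.69 to 120 ± 33.1 CPM (SD, n = 3 each; log2 fold change 0.99, edgeR adjusted p 0.036). The other 4 that rose, named here after their values were seen, were Tjp1 (log2 fold change 1.20), Slc16a1 (0.94), Apcdd1 (0.93) and Tnfrsf19 (0.88), with edgeR adjusted p of 0.0454 to 0.0497. With the trend over gene length and GC content removed, Apcdd1 was at 0.27 (edgeR adjusted p 0.384), Tjp1 at 0.77 (edgeR adjusted p 0.103) and F11r at -0.60 (edgeR adjusted p 0.089), and the 3 calls were lost. In labelled Ezh2 ECKO Marveld2 was the only edgeR call of all the lists (0.684% of all genes were called as lower), at 8.10 ± 1.75 CPM against 22.9 ± 3.04 CPM in WT (SD, n = 3 each; log2 fold change -1.50, edgeR adjusted p 0.0448). That call was lost without WT replicate 1 or 2 and without labelled Ezh2 ECKO replicate 1 or 3, with edgeR adjusted p of up to 0.156. It was also lost with library totals alone (edgeR adjusted p 0.0532) and with only the 2 groups compared (edgeR adjusted p 0.105). In that comparison 2 to 9 genes of each of the 7 lists had an unadjusted p under 0.05, DESeq2 called 1 to 3 and limma with sample quality weights called 0 to 12. The shares over all genes there were 24.7%, 10.4% of those given an adjusted p, and 29.8%. In beta-catenin GOF against WT edgeR called 0 genes of every list. Unadjusted p-values under 0.05 were reached there by 5 barrier genes, 2 Sox genes and 1 PPAR partner (6.07% of all genes). DESeq2 (0.263% of genes given an adjusted p) and limma with sample quality weights (0.207% of all genes) each called 2 barrier genes and none of the other lists. In the 3 comparisons between mutants edgeR called 0 genes of every list, where 1 to 9 genes of a list had an unadjusted p under 0.05, DESeq2 called 0 to 1 and limma with sample quality weights called 0 to 13. In the same order, the shares over all genes were 8.19% to 21.1%, 0.908% to 6.03% of those given an adjusted p, and 0.0875% to 26.5%.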

How the data were processed

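RNA of 12 sorted mouse brain endothelial libraries was prepared with SMART-Seq v4 PLUS and sequenced as read pairs, per the labels' protocols. The submitters' processing notes name FastQC, cutadapt, STAR, featureCounts, DESeq2 and mm10, without versions here. The deposited values are called normalized, but they are whole numbers whose totals differ between libraries and whose low values are mostly even (79.5% to 84.0% of those from 10 to 50), so they were treated as raw counts of mates. Table positions matched GENCODE M21 on GRCm38 for 99.1% of genes.

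The test, on genes averaging 10 counts or more per library, used edgeR 4.0.16 in R 4.3.3 (TMM scaling, 1 model over all 12 libraries, quasi-likelihood F test, Benjamini-Hochberg adjustment over all genes within each of 6 comparisons, threshold 0.05). Standard errors were derived from the F statistic. The smallest detectable level, 3 counts, was 0.0792 to 0.118 CPM. Intervals and floors cover no error from amplification, since the reads carry no molecular identifiers. Alternatives were median-ratio scaling, library totals alone, no filter, DESeq2 1.42.0, limma 3.58.1 with sample quality weights, a replicate block, removal of the length and GC trend (spline with 4 degrees of freedom), both together, only the 2 groups compared, and each library left out. The fits were tested on simulated data with 200 genes changed by known folds in Hdac2 ECKO. There edgeR recovered 0% of 1.5-fold and 10% of 2-fold changes against WT. The adjustment depends on how many genes change, and edgeR called 1157 of 12577 genes in the data. The simulated recovery is therefore not that of the tests above. A gene not called there may still differ by such folds. Of the simulated calls of DESeq2, 24.6% were unchanged genes, against 3.9% of those of edgeR. The counts were drawn with the dispersions and scaling that edgeR estimated, so these shares are not error rates of the calls in the data.

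The members and lists were chosen with earlier results of these data known. Named are all 8 genes with every value, list members past the threshold (at most 4 per list and comparison by smallest p), the targeted genes, the 3 highest genes of each family in WT, and the 2 genes with the highest r to each of the 8. Other names are a count of 1 (Foxn2), the neighbours in a family's order, or stated to be chosen after their values were seen.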

Additional observations from a re-analysis of the deposited data

How the results depend on the processing

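Of 435 values of the 8 genes under the alternatives, 391 kept their direction and side of the threshold, 23 passed only there and 21 turned sign. They cover all 8 genes against WT. Between mutants they cover only genes with an unadjusted edgeR p under 0.05 in the main fit. Sign turns of the other genes between mutants were not recorded. In Hdac2 ECKO against WT, where 0 of 8 were called, the count was 2 with library totals alone (14.5% of all genes called), 1 with no filter (11.2%), 1 with DESeq2 (20.4%), 4 with sample quality weights (42.7%), and 1 with the length and GC trend removed, with (8.94%) or without (6.77%) the replicate block. In labelled Ezh2 ECKO against WT it was 2 with sample quality weights (29.8% of all genes). In beta-catenin GOF against Hdac2 ECKO it was 1 with DESeq2 (6.03%) and 3 with sample quality weights (26.5%), and against labelled Ezh2 ECKO 1 with the weights (11.7%). With 1 library left out the count ran from 0 to 1 in these 4 comparisons and was 0 in the other 2. The cause was not tested. With the replicate block alone it was 0 in all 6 comparisons. Same-numbered libraries were not treated as pairs in the main fit, since the labels name no pairing. The correlation of their deviations was not above 0.1 for every pair in any comparison, with means of -0.05 to 0.14. The highest mean was that of Hdac2 ECKO against labelled Ezh2 ECKO, where libraries of unlike number had a mean of -0.07. These values do not show whether libraries were paired. The block moved the calls over all genes from 1157 to 1832 in Hdac2 ECKO and from 129 to 536 in labelled Ezh2 ECKO.

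In Hdac2 ECKO against WT, Foxl2 was 0.18 with library totals alone, 0.36 with the length and GC trend removed, 0.31 with the replicate block as well, and -0.25 to 0.14 with 1 library left out. Sox7 was 0.0914 with library totals, 0.0453 with sample quality weights, 0.14 with the trend removed, 0.13 with the block as well, and -0.30 to 0.0281 with 1 library left out. Sox18 was 0.0732 with library totals, 0.52 with the trend removed and 0.51 with the block as well. Library totals alone moved the median of all genes from 0.1 to 0.34 and the share of calls that were higher from 41.5% to 80.4%. In labelled Ezh2 ECKO against WT, Sox18 was 0.21 with the trend removed and 0.16 with the replicate block as well. In beta-catenin GOF against WT, Foxl2 was -0.0645 with sample quality weights. With 1 library left out of that comparison, Foxf2 ran from -0.0779 to 0.26 (-0.0512 without beta-catenin GOF replicate 2), Foxl2 from -0.12 to 0.27 (-0.073 without beta-catenin GOF replicate 1), Foxq1 from -0.0054 to 0.33, Sox18 from -0.38 to 0.0428 and Ctnnb1 from -0.31 to 0.0155.

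Over all genes, the 1157 calls of Hdac2 ECKO against WT became 852 to 5374 under the 9 other settings and 0 to 2220 with 1 library left out. The 129 of labelled Ezh2 ECKO became 17 to 3743 and 2 to 2328. The 0 of beta-catenin GOF became 0 to 157 and 0 to 4. Between the 2 knockouts the 3 calls became 2 to 199 under other settings and 1 to 3 with 1 library left out. Those of beta-catenin GOF against Hdac2 ECKO, 9 as reported, became 1 to 3339 and 0 to 541, and the 8 against labelled Ezh2 ECKO became 10 to 1466 and 1 to 731. Of 270 values of targeted genes and of list genes called in the main fit, 82 lost their call. A further 1 (Ezh2 in labelled Ezh2 ECKO) passed only with sample quality weights. Depth limits Ppard most, with 79 to 309 counts per library.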
